A study of Mus musculus with 8 samples.

Results

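The genes described here make hemoglobin and its heme, take heme apart, or carry it in plasma. They are the adult alpha globins Hba-a1 and Hba-a2, the adult beta globins Hbb-b1 and Hbb-b2, Alas1, Alas2 and Fech of heme synthesis, Hmox1 of heme degradation, and Hpx, which encodes hemopexin. The 9 symbols were looked up by name in the gene column of 3 tables, each listing the same 26682 loci of mouse liver RNA. They stood on 8 rows. Where several rows held a symbol, the row with the highest FPKM was taken, which left 7 rows. Hba-a1 and Hba-a2 share both of their rows, and Hbb-b1 and Hbb-b2 share 1 row, so each pair has a single value. FPKM, fragments per kilobase of transcript scaled to the mapped fragments of a library, is a level corrected for length, and each value here is the authors' pooled value for a group.

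Livers came from 8 mice, 2 in each of 4 groups. The groups were KO mice given IUB288, KO mice given vehicle, WT mice given IUB288 and WT mice given vehicle. All were on a C57Bl/6J background and had been fasted for 2 h. IUB288 is an agonist of the glucagon receptor, and KO concerns Fxr, the farnesoid X receptor gene, called Nr1h4 in the tables. The design text speaks of floxed Fxr animals. The sources used here do not give the recombinase, the cells it acted in, the exon, the dose, the duration or the age. Both chow and a high-fat diet were fed, and the labels assign neither to single mice. The targeted transcript remained readable in the libraries labelled KO, at 25.7 FPKM in KO IUB288 livers and 37.4 FPKM in WT IUB288 livers. The authors' deposited table gave Nr1h4 a log2 fold change of -0.54 ± 0.41 there, with a q-value of 1.00. The level of a whole gene includes exons outside any deleted part, so this value does not check the genotype labels.

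Hemoglobin is a tetramer of alpha and beta globin chains, each holding heme, and its messages belong to red cell precursors and young red cells. Heme synthesis starts in mitochondria with aminolevulinate synthase. The housekeeping form, Alas1, is the rate-limiting enzyme in liver, where most heme goes into cytochromes P450, and heme itself lowers its expression. Alas2 is the form of red cell precursors. Ferrochelatase, from Fech, puts iron into the ring at the last step. Heme oxygenase 1, from Hmox1, opens the ring, and macrophages that take up old red cells use it heavily. Hepatocytes secrete hemopexin and haptoglobin, which bind free heme and free hemoglobin in plasma.

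A locus was called where the authors' deposited table gave status OK and a q-value, the p-value adjusted over all tested loci, under 0.05. Each log2 fold change is given with the standard error that its test statistic implies. No value per mouse was available, so no spread between mice can be shown, and p-values rest on 2 mice a group. In bulk liver, fewer cells of a type and less RNA per cell cannot be told apart.

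The promoters of the loci whose calls are described below are shown first, together with that of Alas2 for comparison with the globins. Sequences are from RefSeq on GRCm38.p6, the mm10 assembly, and give the 250 bases before the annotated start, 5′ to 3′ on the gene's strand. Capitals mark every match, on either strand, to CCAAT, to CACCC, to GATAA and to TATAA, the cores of the CCAAT box, the KLF-type site, the GATA site and the TATA box. These letters were chosen with the sequences in view.
Hba-a1, chr11:32283422-32283671, plus strand: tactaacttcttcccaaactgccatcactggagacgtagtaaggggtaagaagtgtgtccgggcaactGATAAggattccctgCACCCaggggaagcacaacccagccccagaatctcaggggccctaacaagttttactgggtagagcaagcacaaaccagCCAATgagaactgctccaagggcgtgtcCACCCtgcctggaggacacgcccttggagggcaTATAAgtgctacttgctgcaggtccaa
Hbb-bs, chr7:103827929-103828178, minus strand: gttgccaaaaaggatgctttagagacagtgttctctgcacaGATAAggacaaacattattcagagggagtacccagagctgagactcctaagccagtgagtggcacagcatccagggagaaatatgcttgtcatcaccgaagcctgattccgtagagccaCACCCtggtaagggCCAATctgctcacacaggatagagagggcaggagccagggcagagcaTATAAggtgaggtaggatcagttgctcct
Hbb-bt, chr7:103813924-103814173, minus strand: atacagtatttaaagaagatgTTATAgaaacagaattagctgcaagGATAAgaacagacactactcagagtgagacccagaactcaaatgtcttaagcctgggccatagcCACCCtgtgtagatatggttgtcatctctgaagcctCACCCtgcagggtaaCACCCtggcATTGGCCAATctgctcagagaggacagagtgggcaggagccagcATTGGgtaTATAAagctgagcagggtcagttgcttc
Alas2, chrX:150547167-150547416, plus strand: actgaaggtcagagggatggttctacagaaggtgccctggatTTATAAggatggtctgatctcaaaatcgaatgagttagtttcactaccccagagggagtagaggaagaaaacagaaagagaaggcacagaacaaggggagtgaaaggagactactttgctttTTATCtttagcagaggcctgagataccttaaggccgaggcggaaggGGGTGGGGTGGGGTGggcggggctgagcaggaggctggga
Hpx, chr7:105600117-105600366, minus strand: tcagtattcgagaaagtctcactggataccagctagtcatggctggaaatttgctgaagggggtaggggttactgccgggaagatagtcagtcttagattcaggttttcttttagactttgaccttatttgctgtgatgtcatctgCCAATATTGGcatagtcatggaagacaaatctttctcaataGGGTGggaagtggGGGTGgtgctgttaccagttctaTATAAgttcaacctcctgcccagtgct

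All 3 globin promoters held the 4 motifs. GATAA lay far upstream, from -182 to -178 in Hba-a1, from -209 to -205 in Hbb-bs and from -204 to -200 in Hbb-bt, counted back from the start. TATAA lay near the start, from -27 to -23 in Hba-a1, from -29 to -25 in Hbb-bs and from -28 to -24 in Hbb-bt. CCAAT lay between them, from -88 to -84 in Hba-a1 and from -76 to -72 in Hbb-bs, and Hbb-bt had 3 matches. The Alas2 window held CACCC on the other strand 3 times between -40 and -26, GATAA on the other strand from -86 to -82, and no CCAAT. The Hpx window held TATAA from -27 to -23 and CCAAT, and neither GATAA nor TTCNNNGAA, a STAT-type element. Of 32851 mouse promoter windows of this length, 33.8% held CCAAT, 52.0% CACCC, 22.6% GATAA, 22.8% TATAA and 7.02% TTCNNNGAA. A match is a description of the letters and not a binding site. The Hba-a2 window was the same as that of Hba-a1 over the 247 bases they share, and Hbb-bs and Hbb-bt matched at 178 of 251 aligned positions, or 70.9%.

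The genotypes were set against each other under IUB288. Both globin rows were higher in KO livers, by 2.49-fold and 2.63-fold, and the other 5 rows did not pass the test. Hba-a1 and Hba-a2, the alpha chain genes, stood at 149 FPKM in KO IUB288 livers and 56.5 FPKM in WT IUB288 livers. The authors' deposited table gave them a log2 fold change of 1.39 ± 0.44, a 2.63-fold difference, with p = 5e-05 and q = 0.0118. Hbb-b1 and Hbb-b2, the beta chain genes, stood at 51.0 FPKM in KO IUB288 livers and 20.5 FPKM in WT IUB288 livers. The authors' deposited table gave them 1.31 ± 0.46, a 2.49-fold difference, with p = 0.0001 and q = 0.0208. Thus 2 of the 7 rows, holding 4 of the 9 symbols, were called higher and 0 lower, against 0.323% of 13918 tested loci called higher and 0.216% called lower, or 0.539% in either direction. The median log2 fold change of the 7 rows was 0.04, and that of all tested loci was -0.01.

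**Figure D1:**
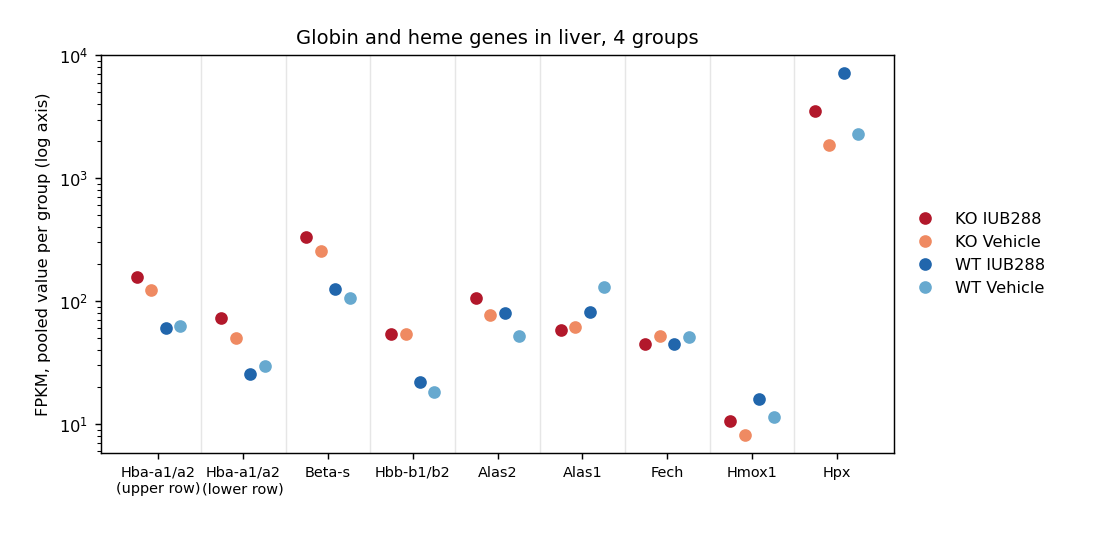
Level of each locus in FPKM (log axis), with 1 point for the authors' pooled value of each group of 2 mice: KO IUB288, KO vehicle, WT IUB288 and WT vehicle from left to right. Values come from the treatment tables, which were scaled separately for KO and WT. All 4 globin loci lie higher in both KO groups than in both WT groups, Alas1 is highest in WT vehicle livers at 131 FPKM, and Hpx is highest in WT IUB288 livers at 7216 FPKM.

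The chosen alpha row spans chr11:32283672-32284493 of mm10, which is RefSeq's Hba-a1. A second row with the same 2 symbols spans chr11:32296489-32297310, RefSeq's Hba-a2, downstream of it. This lower row stood at 69.5 FPKM in KO IUB288 livers and 23.8 FPKM in WT IUB288 livers. The authors' deposited table gave it 1.55 ± 0.46, a 2.92-fold difference, with q = 0.0118. The Hbb-b1 and Hbb-b2 row spans chr7:103812524-103813923, which is RefSeq's Hbb-bt. The row beside it, chr7:103826523-103827928, carries the symbol Beta-s, a RefSeq synonym of Hbb-bs, and is no member by name. Beta-s stood at 318 FPKM in KO IUB288 livers and 116 FPKM in WT IUB288 livers, the highest globin level in either group. The authors' deposited table gave Beta-s 1.45 ± 0.44, a 2.73-fold difference, with q = 0.0118. All 4 of these adult globin loci were among the 45 loci called higher.

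Within each globin pair the copies are almost the same, so the division of reads between them is uncertain. The coding sequences of Hba-a1 and Hba-a2 differ at 1 of 429 bases, and those of Hbb-bs and Hbb-bt at 1 of 444. The summed level of the 4 loci does not depend on that division within a pair. It was 616 FPKM in KO IUB288, 484 FPKM in KO vehicle, 234 FPKM in WT IUB288 and 217 FPKM in WT vehicle livers. Alpha over beta level was 0.592 in KO IUB288, 0.560 in KO vehicle, 0.586 in WT IUB288 and 0.743 in WT vehicle livers. The alpha over beta level was thus nearly equal in both IUB288 groups, and highest in WT vehicle livers.

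For IUB288 over vehicle, none of the 4 globin loci passed the test in either genotype. In KO livers the chosen Hba row stood at 156 FPKM with IUB288 and 123 FPKM with vehicle. The authors' deposited table gave it 0.34 ± 0.40 with q = 0.669. In WT livers the same row stood at 60.8 FPKM with IUB288 and 62.8 FPKM with vehicle, and the authors' deposited table gave -0.05 ± 0.40 with q = 0.967. The Hbb-b1 and Hbb-b2 row stood at 53.6 FPKM with IUB288 and 53.9 FPKM with vehicle in KO livers, and the authors' deposited table gave -0.01 ± 0.40 with q = 0.995. In WT livers that row stood at 22.1 FPKM with IUB288 and 18.3 FPKM with vehicle, and the authors' deposited table gave 0.27 ± 0.46 with q = 0.757. The lower Hba row had the largest change of the 4 loci in KO livers, 73.0 FPKM with IUB288 against 50.5 FPKM with vehicle. The authors' deposited table gave it 0.53 ± 0.40, with p = 0.0582 and q = 0.369. Beta-s stood at 334 FPKM with IUB288 and 256 FPKM with vehicle in KO livers, with q = 0.622 in the authors' deposited table. WT livers held Beta-s at 125 FPKM with IUB288 and 106 FPKM with vehicle, with q = 0.746 in the authors' deposited table.

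No deposited table sets KO against WT under vehicle, so the vehicle levels are placed side by side without a test. The chosen Hba row stood at 123 FPKM in KO vehicle livers and 62.8 FPKM in WT vehicle livers, a ratio of 1.96. The lower Hba row stood at 50.5 FPKM in KO vehicle livers and 29.6 FPKM in WT vehicle livers, a ratio of 1.70. The Hbb-b1 and Hbb-b2 row stood at 53.9 FPKM in KO vehicle livers and 18.3 FPKM in WT vehicle livers, a ratio of 2.94. Beta-s stood at 256 FPKM in KO vehicle livers and 106 FPKM in WT vehicle livers, a ratio of 2.42. All 4 globin loci were thus higher in KO livers without IUB288 too. Rescaling both tables through the IUB288 groups they share with the genotype table changed these ratios to 2.01, 1.74, 3.01 and 2.47, in the same order of loci. In the ratios as deposited, 1 of the 7 rows, that of Hbb-b1 and Hbb-b2, lay past 2-fold higher and 1, Alas1, past 2-fold lower, against 1.87% and 2.52% of 11105 loci. After rescaling, 2 rows lay past 2-fold higher, with the chosen Hba row just over the line, and Alas1 remained past 2-fold lower.

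Other globins were low. The embryonic genes Hba-x, Hbb-bh1, Hbb-bh2 and Hbb-y were listed at 0 in all 4 groups, and Hbq1a and Hbq1b reached at most 0.0826 FPKM. Cygb, cytoglobin, which stellate cells of the liver express, was the most abundant of the 4 other heme-binding globins on the list. Cygb stood at 3.29 FPKM in WT IUB288 livers and 6.49 FPKM in WT vehicle livers, and the authors' deposited table gave -0.98 ± 0.48 with q = 0.0568.

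Red cell markers gave a mixed picture beside the globins. Of 35 erythroid marker loci, a list that includes Alas2 and Fech, 21 stayed under 1 FPKM in every group. Slc4a1, the band 3 anion exchanger of the red cell membrane, reached at most 0.480 FPKM, and Gata1, an erythroid transcription factor, 0.0128 FPKM. Klf1, an activator of beta globin, stood at 2.30 FPKM in KO IUB288 livers and 2.51 FPKM in WT IUB288 livers. Ahsp, the alpha globin chaperone, was not matched to a locus. Summed over the erythroid markers other than Alas2 and Fech, FPKM was 158 in KO IUB288 livers and 156 in WT IUB288 livers. Of the 16 tested erythroid loci, the authors' Cuffdiff test called 0 in the KO effect under IUB288, 2 had an unadjusted p under 0.05, and a normal p called 0. Their median log2 fold change was 0.05.

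Among the 21 erythroid loci under 1 FPKM, 17 were above 0 in both groups of the KO effect under IUB288, and 15 of them were higher in KO IUB288 livers. Their median log2 ratio was 0.65, beside 0.08 over the 7158 such loci of the table, of which 55.0% were higher. Under vehicle 8 of 18 were higher in KO livers, with a median of -0.23 on the rescaled levels, beside -0.15 over 7491 such loci, of which 42.2% were higher. The vehicle values therefore lay near those of all such loci. For IUB288 over vehicle in WT livers, 3 of 16 were higher and 13 lower, with a median of -0.96. All such loci had a median of -0.18 there, and 42.6% were higher. In KO livers 7 of 17 were higher with IUB288, with a median of -0.04, beside 0.02 over all such loci, of which 50.7% were higher. The split at 1 FPKM was chosen after the values were seen, these loci lie near the limit of detection, and their part in the globin difference was not tested.

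For KO over WT under IUB288, Kupffer cell and macrophage markers lay on the other side of 0 from the globins. All 17 of 17 were lower in KO IUB288 livers than in WT IUB288 livers, 6 of them called, with a median log2 fold change of -1.19. Their summed FPKM was 167 in KO IUB288 livers and 363 in WT IUB288 livers. For IUB288 over vehicle, 15 of the 17 were above 0 in WT livers, with a median of 0.52. In KO livers 3 were above 0, with a median of -0.26. On the levels of the treatment tables, the sum was 176 FPKM in KO IUB288 and 218 FPKM in KO vehicle livers. It was 391 FPKM in WT IUB288 and 277 FPKM in WT vehicle livers, so WT IUB288 livers were highest. Marco, a scavenger receptor, stood at 2.76 FPKM in KO IUB288 livers and 11.8 FPKM in WT IUB288 livers, with -2.10 ± 0.52 and q = 0.0118 in the authors' deposited table. C1qa and C1qb, complement subunits made by macrophages, both had -1.49 in the authors' deposited table, with errors of 0.42 and 0.43 and q = 0.0118. Kupffer cells clear old red cells and hemoglobin. Cd163, their receptor for hemoglobin bound to haptoglobin, stood at 1.22 FPKM in KO IUB288 livers and 2.96 FPKM in WT IUB288 livers, with -1.27 ± 0.47 and q = 0.0587 in the authors' deposited table. Of 11 hepatocyte markers Cuffdiff called 0, also 0 at an unadjusted p under 0.05 and by a normal p, with a median of -0.14. The part of macrophage or blood content in the globin difference was not tested.

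**Figure D2:**
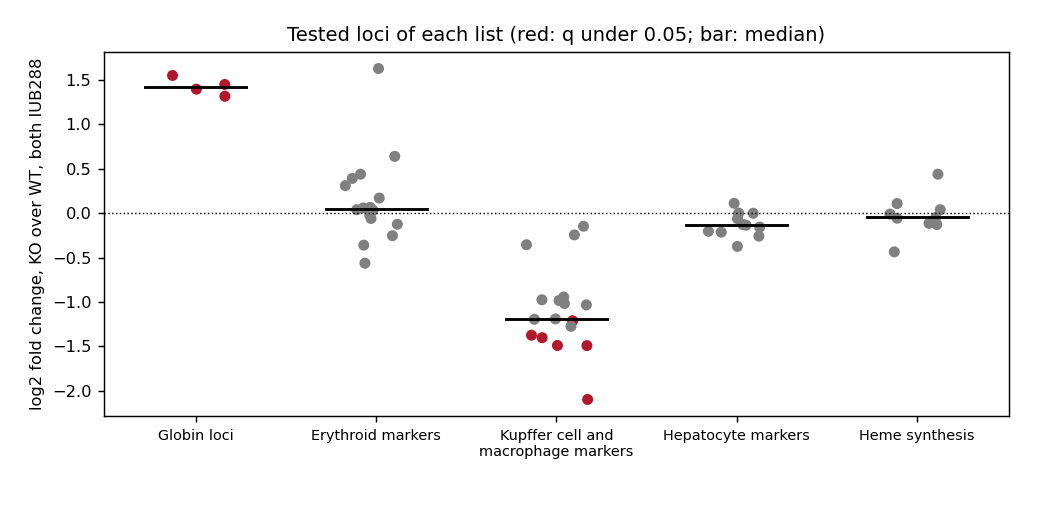
Log2 fold change of KO IUB288 over WT IUB288 livers for each tested locus of 5 lists, with red points for q under 0.05 and a bar at the median. The 4 globin loci lie above 1.3, the Kupffer cell and macrophage markers center on -1.19, and the erythroid markers, hepatocyte markers and heme synthesis enzymes center near 0 with no called locus.

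Heme synthesis was the next step considered, beginning with its first enzyme. Alas1, at chr9:106233455-106247954, was lowest in KO IUB288 livers at 58.7 FPKM, followed by 61.8 FPKM in KO vehicle, 81.2 FPKM in WT IUB288 and 131 FPKM in WT vehicle livers. In KO livers the authors' deposited table gave IUB288 over vehicle a log2 fold change of -0.07 ± 0.38 with q = 0.954. In WT livers the authors' deposited table gave -0.69 ± 0.45, with p = 0.0251 and q = 0.183, which did not pass. Under IUB288 Alas1 stood at 55.7 FPKM in KO livers and 75.4 FPKM in WT livers, and the authors' deposited table gave -0.44 ± 0.42 with q = 1.00. The IUB288 effect in KO minus that in WT was 0.62 ± 0.59, with an unadjusted p of 0.291 and an adjusted p of 1.00, so the treatment effects were not shown to differ. Under vehicle, where no test was possible, the level in KO livers was 0.471 times that in WT livers.

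For Alas2 the order of the groups was different, with KO IUB288 livers highest and WT vehicle livers lowest. It stood at 107 FPKM in KO IUB288, 77.3 FPKM in KO vehicle, 80.7 FPKM in WT IUB288 and 51.6 FPKM in WT vehicle livers. In KO livers the authors' deposited table gave IUB288 over vehicle 0.47 ± 0.36 with q = 0.390. In WT livers the authors' deposited table gave 0.65 ± 0.40, with p = 0.0224 and q = 0.169. Under IUB288 Alas2 stood at 102 FPKM in KO livers and 75.0 FPKM in WT livers, and the authors' deposited table gave 0.44 ± 0.40 with q = 1.00. None of these passed. The level of Alas1 over that of Alas2 was 0.549 in KO IUB288, 0.799 in KO vehicle, 1.01 in WT IUB288 and 2.54 in WT vehicle livers. In these pooled levels the liver form stood well above the erythroid form in WT vehicle livers, was about level with it in WT IUB288 livers, and was below it in both KO groups.

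The level of Alas2 was high beside that of the defining red cell markers. Alas2 over the summed globin level was 0.174 in KO IUB288, 0.160 in KO vehicle, 0.345 in WT IUB288 and 0.238 in WT vehicle livers, so Alas2 and the globins did not keep 1 ratio. The Alas2 row spans chrX:150547417-150570622, a stretch that RefSeq's Apex2, a DNA repair nuclease, and Mir3620 overlap. In the tables Apex2 has its own row, which begins past the end of Alas2, and stood at 4.39 FPKM in KO IUB288, 2.73 FPKM in KO vehicle, 6.19 FPKM in WT IUB288 and 2.49 FPKM in WT vehicle livers. Whether counting used strand is not stated by those sources, so reads of overlapping genes may be mixed.

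Fech, which ends the pathway, lay in a narrow range. It stood at 44.9 FPKM in KO IUB288, 52.4 FPKM in KO vehicle, 44.6 FPKM in WT IUB288 and 50.8 FPKM in WT vehicle livers. The authors' deposited table gave IUB288 over vehicle -0.22 ± 0.36 in KO livers, with q = 0.802. The authors' deposited table gave -0.19 ± 0.40 in WT livers, with q = 0.820, and 0.04 ± 0.40 for KO over WT under IUB288, with q = 1.00.

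Across all 9 enzymes of heme synthesis, the authors' Cuffdiff test called 0 in each of the 3 comparisons, and so did a normal p. At an unadjusted p under 0.05 there were 1 for IUB288 in KO, 2 for IUB288 in WT and 0 for KO under IUB288, with median log2 fold changes of -0.06 for IUB288 in KO, -0.09 for IUB288 in WT and -0.05 for KO under IUB288. The largest step among the other 6 enzymes was Cpox, coproporphyrinogen oxidase, at 31.9 FPKM in KO IUB288 livers and 50.0 FPKM in KO vehicle livers. The authors' deposited table gave Cpox -0.65 ± 0.36, with p = 0.0126 and q = 0.144. In WT livers Cpox stood at 30.3 FPKM with IUB288 and 33.5 FPKM with vehicle, and the authors' deposited table gave -0.14 ± 0.39 with q = 0.871. Alad, which joins aminolevulinate into porphobilinogen, had -0.64 ± 0.56 in KO livers (q = 0.472) and -0.30 ± 0.68 in WT livers (q = 0.822) in the authors' deposited tables. Urod, uroporphyrinogen decarboxylase, had 0.11 ± 0.35 in KO livers (q = 0.920) and 0.38 ± 0.39 in WT livers (q = 0.533) in the authors' deposited tables. Uros and Ppox, the uroporphyrinogen synthase and the oxidase before Fech, had values between -0.09 and 0.20 in the authors' deposited tables of both genotypes. Summed over the 9 enzymes, FPKM was 426 in KO IUB288, 449 in KO vehicle, 437 in WT IUB288 and 455 in WT vehicle livers.

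**Figure D3:**
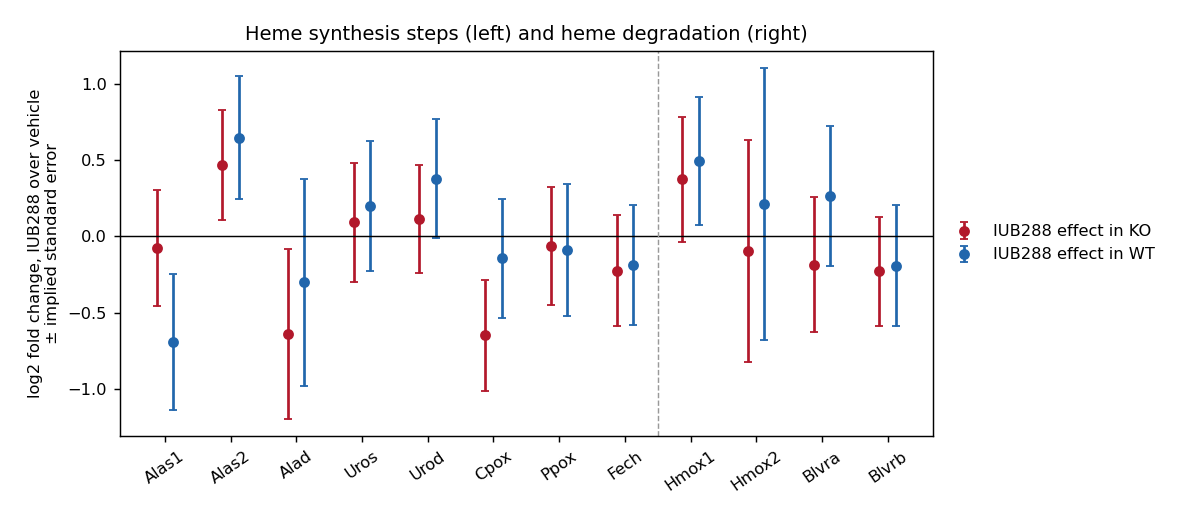
Log2 fold change of IUB288 over vehicle, with the standard error implied by the test statistic, for 8 of the 9 enzymes of heme synthesis in pathway order and 4 of the 5 loci of heme degradation, in KO (red, left of each pair) and WT livers (blue). No point passed the q threshold, and Alas1 in WT, at -0.69, and Cpox in KO, at -0.65, lie farthest below 0.

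Genes that supply heme synthesis held called loci. Of 25 loci for mitochondrial transport, iron-sulfur clusters and succinyl-CoA, IUB288 raised 1 and lowered 1 in KO livers, and raised 2 and lowered 1 in WT livers. Over all tested loci, 5.51% were called in either direction in KO livers and 7.37% in WT livers. A normal p called 0 of the 25 in either genotype. Slc25a37, mitoferrin 1, the mitochondrial iron importer, stood at 5.65 FPKM in KO IUB288 livers and 10.5 FPKM in KO vehicle livers. The authors' deposited table gave it -0.89 ± 0.38 with q = 0.0111. In WT livers Slc25a37 stood at 4.48 FPKM with IUB288 and 11.0 FPKM with vehicle, with -1.29 ± 0.42 and q = 0.00163 in the authors' deposited table. Slc25a39, a mitochondrial glutathione carrier, rose by 0.87 ± 0.39 in KO livers (q = 0.0332) and by 1.05 ± 0.42 in WT livers (q = 0.0148) in the authors' deposited tables. Clpx, the unfoldase of a mitochondrial protease that acts on aminolevulinate synthase, rose in WT livers by 1.09 ± 0.45 with q = 0.0199 in the authors' deposited table. For KO under IUB288 Cuffdiff called 0 of the 25, also 0 at an unadjusted p under 0.05 and by a normal p.

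Among 22 regulators of Alas1 and Hmox1, IUB288 raised 2 and lowered 1 in KO livers, and raised 0 and lowered 4 in WT livers. Beside these counts, 5.51% of all tested loci were called in KO livers and 7.37% in WT livers. Ppargc1a, a coactivator of Alas1 in fasted liver, stood at 3.53 FPKM in KO IUB288 livers and 1.59 FPKM in KO vehicle livers, with 1.15 ± 0.41 and q = 0.00879 in the authors' deposited table. The difference of its effects, KO minus WT, was 1.07 ± 0.60, with an unadjusted p of 0.0729 and an adjusted p of 1.00. Rora, a nuclear receptor of the liver clock, had 0.73 ± 0.36 with q = 0.0420 in KO livers in the authors' deposited table. Nr1i3, the receptor CAR, which induces Alas1 with the P450 genes, stood at 13.4 FPKM in KO IUB288 livers and 48.2 FPKM in KO vehicle livers, with -1.84 ± 0.65 and q = 0.00761 in the authors' deposited table. Among WT mice Maff, a small Maf protein that pairs with Bach1 or Nfe2l2, fell by 2.22 on the log2 scale, with q = 0.00163 in the authors' deposited table. Mafk, of the same family, fell by 1.39 with q = 0.0247, and Nr1d2, the heme-binding receptor REV-ERB beta, fell by 0.90 with q = 0.0369, in the authors' deposited table. Bach1 itself was the remaining one of the 4 lowered in WT livers. It stood at 3.49 FPKM with IUB288 and 6.42 FPKM with vehicle, with -0.88 ± 0.43 and q = 0.0415 in the authors' deposited table. By a normal p the list had 0 calls in KO livers, so those of Ppargc1a, Rora and Nr1i3 did not hold, and 1 in WT livers. For KO under IUB288 Cuffdiff called 0 of the 22, also 0 at an unadjusted p under 0.05 and by a normal p.

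The list of liver proteins that carry heme had 20 loci, and Sc5d, which carries no heme, was among them. Of these 20, IUB288 lowered 5 and raised 0 in KO livers, and lowered 4 and raised 2 in WT livers. Among all tested loci, 2.37% were called lower and 3.13% higher in KO livers, and 3.4% lower and 3.96% higher in WT livers. Cyp2e1, an abundant ethanol-metabolising P450, stood at 1305 FPKM in KO IUB288 livers and 5186 FPKM in KO vehicle livers, with -1.99 ± 0.61 and q = 0.00189 in the authors' deposited table. WT livers held Cyp2e1 at 1169 FPKM with IUB288 and at 4564 FPKM with vehicle, with -1.97 ± 0.61 and q = 0.00163 in the authors' deposited table. Cyp3a11 and Cyp1a2 were also called lower in both genotypes, and Cyp51 in KO livers. Sdhd, the heme-binding anchor of succinate dehydrogenase, and Cyp7b1, an oxysterol hydroxylase, rose in WT livers, by 0.92 ± 0.40 and 1.83 ± 0.46 in the authors' deposited table. For KO under IUB288, 1 of the 20 was called higher and 0 lower. This was Cyp3a11, a major drug-metabolising P450, at 112 FPKM in KO IUB288 livers and 8.40 FPKM in WT IUB288 livers, with 3.74 ± 0.48 and q = 0.0118 in the authors' deposited table. By a normal p the list had 2 calls in KO livers, 2 in WT livers and 1 for KO under IUB288. These P450 genes have close relatives, so their reads may be divided between copies.

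Heme degradation did not pass the test in any comparison. Hmox1, at chr8:75093618-75100593, was the lowest of the 7 rows in every group. It stood at 10.5 FPKM in KO IUB288, 8.13 FPKM in KO vehicle, 15.9 FPKM in WT IUB288 and 11.3 FPKM in WT vehicle livers. The authors' deposited table gave IUB288 over vehicle 0.37 ± 0.41 in KO livers, with q = 0.635. In WT livers the authors' deposited table gave 0.49 ± 0.42 with q = 0.394. Under IUB288 Hmox1 stood at 10.02 FPKM in KO livers and 14.8 FPKM in WT livers, and the authors' deposited table gave -0.56 ± 0.43 with p = 0.0712 and q = 1.00. The Kupffer cell markers described above, whose cells express Hmox1, were lower in the same KO livers, and their part in this value was not tested.

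All 5 degradation loci were below 0 in that genotype comparison, with a median of -0.32, and 0 were called. Hmox2, the constitutive heme oxygenase, stood at 20.6 FPKM in KO IUB288 livers and 26.5 FPKM in WT IUB288 livers, and the authors' deposited table gave -0.36 ± 0.85. Blvra and Blvrb, the biliverdin reductases, had -0.32 ± 0.47 and -0.14 ± 0.40, and Ugt1a1, which conjugates bilirubin, had -0.12 ± 0.45, in the authors' deposited table, each with q = 1.00. For IUB288 over vehicle the 5 loci had medians of -0.19 in KO livers and 0.21 in WT livers, and 0 were called. At an unadjusted p under 0.05, and by a normal p, the list also had 0 in all 3 comparisons. Of 11 targets of Nfe2l2, the factor that induces Hmox1, Cuffdiff and a normal p called 0 in all 3 comparisons. At an unadjusted p under 0.05 there were 0 for IUB288 in KO, 1 for IUB288 in WT and 2 for KO under IUB288. In that genotype comparison 10 of the 11 targets lay above 0 and 1 below. Their median was 0.13, beside -0.01 over all tested loci.

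Hpx, at chr7:105591611-105600116, was the most abundant of the 7 rows in every group, and the one called higher with IUB288 in WT livers. In KO livers Hpx stood at 3509 FPKM with IUB288 and 1852 FPKM with vehicle. The authors' deposited table gave a log2 fold change of 0.92 ± 0.55, a 1.89-fold difference, with p = 0.0189 and q = 0.187. There 0 of 7 rows were called by the authors' Cuffdiff test, against 5.51% of 13822 tested loci, 3.13% higher and 2.37% lower. A normal p from the same statistic also called 0, and Hpx alone had an unadjusted p under 0.05. In WT livers Hpx stood at 7216 FPKM with IUB288 and 2271 FPKM with vehicle. The authors' deposited table gave 1.67 ± 0.69, a 3.18-fold difference, with p = 0.00225 and q = 0.0350. This was 1 of 7 rows called higher and 0 lower, against 3.96% and 3.4% of 15164 tested loci, or 7.37% in either direction. The normal p of Hpx in WT livers, adjusted over the same table, was 0.295, so the call did not hold under it. The effect in KO minus that in WT was -0.75 ± 0.89 with an adjusted p of 1.00, so the effects were not shown to differ.

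Under IUB288 Hpx stood at 3333 FPKM in KO livers and 6692 FPKM in WT livers. The authors' deposited table gave -1.01 ± 0.68, with p = 0.036 and q = 1.00. Under vehicle it stood at 1852 FPKM in KO livers and 2271 FPKM in WT livers, a ratio of 0.816 without a test. Hpx was thus higher with IUB288 than with vehicle in both genotypes, and the WT IUB288 group was the highest of the 4.

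**Figure D4:**
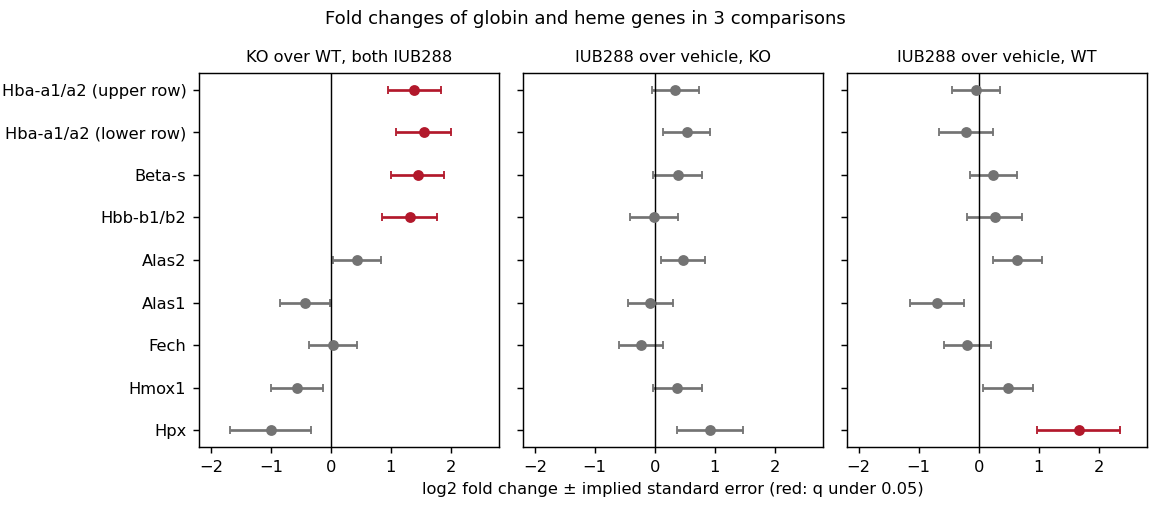
Log2 fold change with its implied standard error for each globin and heme locus, in 3 panels: KO over WT under IUB288, IUB288 over vehicle in KO, and IUB288 over vehicle in WT. Red marks q under 0.05. The 4 globin loci pass in the first panel, none passes in the second, and Hpx alone passes in the third.

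Haptoglobin, from Hp, had a like pattern. In KO livers Hp stood at 2615 FPKM with IUB288 and 1433 FPKM with vehicle, with 0.87 ± 0.50 and q = 0.179 in the authors' deposited table. WT livers held Hp at 7434 FPKM with IUB288 and 1773 FPKM with vehicle, with 2.07 ± 0.72 and q = 0.0113 in the authors' deposited table. Its difference, KO minus WT, was -1.20 ± 0.88 with an adjusted p of 1.00. Hpx and Hp are acute-phase genes, and so is Lcn2, which was listed here as a neutrophil marker. In KO livers Lcn2 stood at 13.6 FPKM with IUB288 and 13.5 FPKM with vehicle, with 0.01 ± 0.48 and q = 0.995 in the authors' deposited table. WT livers held Lcn2 at 369 FPKM with IUB288 and 24.5 FPKM with vehicle, with 3.91 ± 0.51 and q = 0.00163 in the authors' deposited table. Under IUB288 Lcn2 stood at 12.9 FPKM in KO livers and 341 FPKM in WT livers, with -4.72 ± 0.57 and q = 0.0118 in the authors' deposited table. Lcn2 alone was called among the 6 neutrophil loci tested in WT livers. The part of an acute-phase state in the Hpx value was not tested.

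The list of heme carriers, which includes Hpx and Hp, also held loci called lower. Of 12 tested loci for scavenging and transport, IUB288 raised 0 and lowered 1 in KO livers. In WT livers it raised 2, the Hpx and Hp described above, and lowered 2. Calls over all tested loci came to 5.51% in KO livers and 7.37% in WT livers. Abcg2, an exporter of porphyrins, stood at 19.9 FPKM in KO IUB288 livers and 46.6 FPKM in KO vehicle livers, with -1.23 ± 0.36 and q = 0.00189 in the authors' deposited table. WT livers held Abcg2 at 9.60 FPKM with IUB288 and at 25.4 FPKM with vehicle, with -1.41 ± 0.41 and q = 0.00163 in the authors' deposited table. Fabp1, a liver fatty acid carrier that also binds heme, stood at 4597 FPKM in WT IUB288 livers and 11273 FPKM in WT vehicle livers, with -1.29 ± 0.53 and q = 0.0214 in the authors' deposited table. Alb was listed at 0 in both vehicle groups, which reads as a failed estimate in liver, and was not used. By a normal p the list had 1 call in KO livers and 1 in WT livers. In the genotype comparison Cuffdiff called 0 of 13 loci, with 4 at an unadjusted p under 0.05 and 0 by a normal p.

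Some iron handling genes were called with IUB288. Of 20 tested loci, IUB288 raised 3 and lowered 2 in KO livers and raised 3 and lowered 0 in WT livers. The share called over all tested loci was 5.51% in KO livers and 7.37% in WT livers. For KO under IUB288 Cuffdiff called 0 of the 20, with 4 at an unadjusted p under 0.05. A normal p called 0 in KO livers, 1 in WT livers and 0 for KO under IUB288. Hamp, which encodes the iron hormone hepcidin, stood at 616 FPKM in KO IUB288 livers and 327 FPKM in KO vehicle livers, with 0.91 ± 0.39 and q = 0.0315 in the authors' deposited table. WT livers held Hamp at 1175 FPKM with IUB288 and at 447 FPKM with vehicle, with 1.40 ± 0.41 and q = 0.00163 in the authors' deposited table. Hamp2 stood at 337 FPKM in KO IUB288 livers and 133 FPKM in KO vehicle livers, with 1.34 ± 0.43 and q = 0.00189 in the authors' deposited table. Hfe, a sensor upstream of hepcidin, rose in both genotypes, by 1.07 ± 0.36 in KO livers and 1.09 ± 0.40 in WT livers in the authors' deposited tables. The 3 loci raised in KO livers were thus Hamp, Hamp2 and Hfe. Slc40a1, the iron exporter ferroportin, stood at 15.5 FPKM in KO IUB288 livers and 30.5 FPKM in KO vehicle livers, with -0.97 ± 0.36 and q = 0.00346 in the authors' deposited table.

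The IUB288 effects in KO and WT were set against each other for every locus tested in both treatment tables. Of 13521 loci 14 differed at an adjusted p under 0.05, or 0.104%, and 0 of the 7 rows did, at an adjusted p of 1.00 each. Among the rows the smallest unadjusted p was that of Alas1, 0.291, and the lower Hba row had 0.211. In data simulated with the same errors, this test found 24.6% of differences of 2 on the log2 scale and 80.6% of differences of 4. These shares are averages over changed loci drawn from all 13521, and none was computed for the 7 rows alone. The absence of a call in these rows therefore does not show equal effects.

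Loci were also ranked by how near their 3 log2 fold changes lay to those of the chosen Hba row. Among 9418 loci with at least 1 FPKM throughout, the nearest was Beta-s, at a Euclidean distance of 0.294. Rcan2 followed at 0.323, Tff1 at 0.401, Cd63 at 0.405 and Tmprss2 at 0.461. In the authors' deposited table Rcan2 was also called higher in KO IUB288 livers, at 1.25 with q = 0.0208. The nearest to Alas1 were Mast3 at 0.057, Sp100 at 0.187, Robo4 at 0.209, Gne at 0.216 and Gpihbp1 at 0.228. The comparisons share groups, so these distances describe the tables.

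The calls rest on the authors' p-values. A normal p from the same statistic, adjusted over the same table, was 0.460 for the chosen Hba row, 0.312 for the lower Hba row, 0.843 for Hbb-b1 and Hbb-b2, 0.377 for Beta-s, and 0.295 for Hpx in WT livers, so none of these calls held under it. Of the 6 called Kupffer cell markers 1 remained by normal p, and of the called loci for the supply of heme 0 remained in either genotype. Restricting the tables to loci of at least 1 FPKM kept all 5 calls, with adjusted p-values of 0.0105, 0.0105, 0.0185, 0.0105 and 0.0283. Tied q-values do not rank loci. In the authors' deposited table for KO under IUB288, q = 0.0118 was given to the chosen Hba row at 1.39 ± 0.44. Lcn2 had the same q at -4.72 ± 0.57.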

How the data were processed

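RNA from livers of 8 mice was extracted with TRIzol and made into TruSeq libraries, per the labels' protocols. The submitters' processing notes name Cufflinks 2.2.1, Cuffdiff (no version), TopHat2 2.0.12 with Bowtie2 2.2.3, Trim Galore 0.4.0 and bcl2fastq 1.8.4. The authors deposited 3 full tables with pooled FPKM per group, log2 fold change, test statistic (a score), p-value and q-value per locus. The notes name mm10 and also hg19, the loci match mm10 genes, and coordinates here count from 1. Depth per library is unknown.

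The authors' calls (status OK, q under 0.05) are the main test. The implied error is the log2 fold change over the statistic. The difference of KO and WT effects was tested with these errors by a normal two-sided p, Benjamini-Hochberg adjusted over 13521 loci, and checked on simulated data. Tables were scaled separately: KO IUB288 values of the genotype table were 0.950 times those of the treatment table (median, 4143 loci), and WT IUB288 values 0.929 times (4209 loci). Levels across tables therefore have no test.

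The 9 genes, the 16 gene lists and the tests were chosen with earlier results of these data known. Named beside the 9 genes are the loci of heme synthesis and degradation (1 item is not reported here), up to 3 called loci per list, direction and comparison with at least 1 FPKM, and 5 nearest loci by fold changes. Other genes named (Beta-s, Apex2, Bach1, Cd163, Cygb, the low erythroid markers and Hp or Lcn2 in KO) were chosen after their values were seen or as markers. Of the 9 symbols, 5 matched the RefSeq promoter table, and Hbb-b1 and Hbb-b2 were reached through the RefSeq genes at their loci. Alternatives were a stricter q, a 1 FPKM minimum, normal p-values, a pseudocount of 1, centring, summed rows and rescaling. The per-sample columns left unmapped numbered 0. Computations used Python 3.11.15, pandas 2.3.3, numpy 2.4.6, scipy 1.17.1, biopython 1.88 and matplotlib 3.10.9.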

Additional observations from a re-analysis of the deposited data

How the results depend on the processing

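With q under 0.01, 0 of the 7 rows were called for IUB288 in WT and 0 for KO under IUB288, since the q-values of Hpx and of both globin rows lie above 0.01. With normal p-values from the deposited statistics the counts were also 0 and 0, and among all loci 392 were then called for IUB288 in WT and 28 for KO under IUB288; the cause was not tested. With a minimum of 1 FPKM the counts stayed at 1 and 2. For IUB288 in KO and for the difference of KO and WT effects the count was 0 under every alternative run. The 45 fold changes of single genes under a pseudocount, centring or summed Hba rows all moved by less than their implied error. Rescaling multiplied each of the 7 vehicle ratios, which have no error, by 1.02. Values per mouse were not available, so leaving out each mouse was not run. No paired analysis was possible because the deposited values are pooled over the mice of a group. The unknown depth limits what low values can show.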
